A study of Mus musculus with 2 samples.

Results

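The genes described here are 38 genes of peptide signalling: 27 precursors of neuropeptides, 6 granins and 5 genes of precursor processing. They were chosen by name, as the non-control spots of the arrays whose gene name was one of the 38, and all 38 were found among the 34797 gene names on the array, on 44 probes and 62 spots. Of the 38, 37 were well above background on both arrays, which is what counts as measured below, and Ucn, the urocortin gene, was on neither. Hippocampal RNA of mice of the outbred ICR strain was taken 8 weeks after surgery, which was either a sham operation (1 array, sham) or the 5/6Nx operation (1 array, 5/6Nx). 5/6Nx is the usual short form of 5/6 nephrectomy, which removes most of the kidney tissue and models chronic kidney disease. The age and sex of the mice, the number of animals behind each array and the limits of the dissection are stated in neither the labels nor the headers. With 1 array in each group no test between the groups was possible, no spread between animals was measured, and every difference below describes these 2 arrays.

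Neuropeptides are made as long precursors that enter the regulated secretory pathway. In the maturing dense-core vesicle, prohormone convertases cut the precursor at pairs of basic residues, a carboxypeptidase trims the ends and an amidating enzyme finishes many peptides, while granins help to form the vesicle core. In the hippocampus most peptide mRNA is found in GABAergic interneurons, whose classes are named by their peptides, with a smaller set in pyramidal, granule and mossy cells, whereas peptides such as orexin, vasopressin and oxytocin are made in hypothalamic neurons that send only their axons to the hippocampus.

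Both arrays carried 59305 spots other than controls, for 55681 probes. Spots well above background made up 72.7% in sham and 72.5% in 5/6Nx, and none was saturated. Scaling used the 75th percentile of processed intensity, 1452 in sham and 1263 in 5/6Nx, so a gene at an equal relative level has a somewhat lower signal on the 5/6Nx array. After this scaling the sham value was subtracted from the 5/6Nx value in log2, and this is the difference printed in brackets, while signals are linear intensities before scaling. A 2-fold difference serves as a mark of size, with no test behind it. The median difference over the 25944 genes measured was 0.05. Replicate spots of a probe had a median SD of 0.06 on the sham array and 0.05 on the 5/6Nx array, a technical spread in log2. Among the probes of 1 gene the SD of the difference was 0.20 at the median, also in log2. Such probes can read different transcripts, so this SD need not be technical alone. Neither is a spread between animals. The scanner software's own error was 10% of the signal at the median over the measured members, largely a preset share.

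All 10 peptide genes that mark hippocampal interneurons had differences below 0, with a median of -0.93, and 4 of the 10 were at least 2-fold lower in 5/6Nx: Crh, Pnoc, Cort and Tac1. Among all measured genes the share below 0 was 44.6%, and 3.28% were at least 2-fold lower. The 6 peptide genes of principal cells were also all below 0 (median -0.80), with Grp and Adcyap1 at least 2-fold lower. The hypothalamic and brainstem peptides differed in the other direction or little, with a median of 0.28. Most were at or below the median signal, where all genes had a median of 0.15 and 36.6% were below 0. Of 10 measured, Hcrt and Oxt were at least 2-fold higher, and 0 were 2-fold lower. The share at least 2-fold higher was 4.91% of all genes and 7.34% of those dimmer genes. Granins had a median of 0.0058 and no 2-fold difference, and among the processing genes Pcsk1 alone was at least 2-fold lower. Together 7 of the 37 measured members were at least 2-fold lower and 2 higher. With the arrays set to their median or to the spike-in probes these counts were 11 and 1. In bulk tissue, fewer cells of a type and less RNA per cell cannot be told apart.

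**Figure D1:**
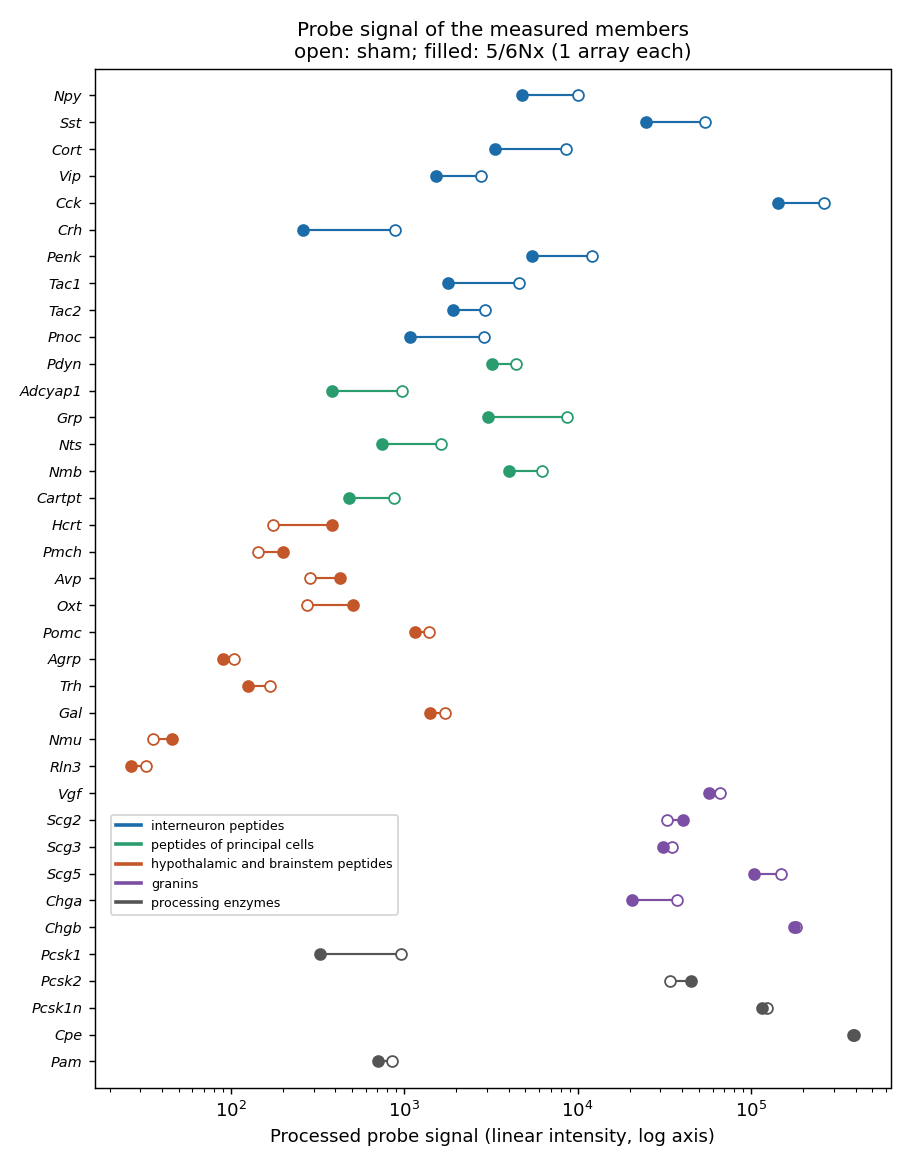
Processed signal of the representative probe of each measured member (horizontal axis, linear intensity on a log axis) on the sham array (open circle) and the 5/6Nx array (filled circle), coloured by class. For all 10 interneuron peptides the filled circle lies to the left, from Cck at 263177 and 142187 down to Crh at 886 and 262, while Hcrt, Oxt, Avp, Pmch, Nmu, Scg2 and Pcsk2 have it to the right. Signals are before scaling, and the 75th percentile was 1452 in sham and 1263 in 5/6Nx. A gene at an equal relative level therefore also has its filled circle to the left.

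Somatostatin, the peptide of dendrite-targeting interneurons, is encoded by Sst, whose probe was spotted 10 times on each array. Before scaling, the 10 spots lay between 51042 and 56495 in sham and between 23765 and 26050.0 in 5/6Nx. Their mean was 5.22 ± 0.04 (SD, n = 10 spots) in sham and 4.30 ± 0.03 (SD, n = 10 spots) in 5/6Nx on the scaled log2 axis, a difference of -0.92. The spots share the RNA of an array and are no replicates of the condition. Cort encodes cortistatin, a close relative of somatostatin that binds the same receptors, and it had a signal of 8598 in sham and 3328 in 5/6Nx (-1.17, 2.25-fold lower). Npy encodes neuropeptide Y, found in several interneuron classes and overlapping with somatostatin cells, and its signal was 10005 in sham and 4756 in 5/6Nx (-0.87).

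The probes of Npy and Sst hold coding bases of their precursors, and that of Npy shows a site at which the precursor is cut. The Npy probe spans chr6:49773743-49777505 on mm9 (plus strand), far longer than its 60 bases, so it crosses an exon junction. Its capitals mark the pair of basic codons behind the glycine codon that gives the amide of neuropeptide Y. The Sst probe lies at chr16:23889776-23889835 on mm9 (minus strand), and its 21 coding bases, which end with the stop codon, are printed because somatostatin is the very end of its precursor.
Npy: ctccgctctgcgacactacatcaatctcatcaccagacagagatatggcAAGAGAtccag
Sst: aagacattcacatcctgttag

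Crh encodes corticotropin-releasing hormone, which in the hippocampus is made by interneurons and elsewhere starts the stress axis. It had the lowest difference of the 37 measured members, at -1.56 (2.94-fold lower), from a signal of 886 in sham and 262 in 5/6Nx at chr3:19593482-19593541 on mm9. Only 1.0% of all measured genes had a lower difference, and its probe is among the probes at or below the median signal. Pnoc, the precursor of nociceptin, an opioid-like peptide, stood at 2869 in sham and 1073 in 5/6Nx (-1.22). Tac1, which encodes substance P and neurokinin A, had 4585 in sham and 1787 in 5/6Nx (-1.16).

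The other members of the class lay below 0 but short of 2-fold. Penk, the enkephalin precursor, had a signal of 12026 in sham and 5455 in 5/6Nx (-0.94). Cck, the cholecystokinin gene of basket cells and also of pyramidal cells, had 263177 in sham and 142187 in 5/6Nx (-0.69). Vip, the peptide of interneurons that target other interneurons, had 2760.4 in sham and 1526 in 5/6Nx (-0.65), and Tac2, the neurokinin B precursor, had 2923 and 1902 (-0.42). Of the 10 genes 9 were at least 1.5-fold lower, against 8.92% of all genes. Dim and bright genes differed in their balance, and 9 of the 10 were above the median signal, where 2.36% of genes were at least 2-fold lower and 52.6% had a difference below 0. Of these 9 members all had a difference below 0, and 3 reached 2-fold. With the arrays set to their median or to the spike-in probes, 7 of the 10 were 2-fold lower.

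Markers of GABAergic interneurons that are no peptides moved with these genes. Of 17 measured markers 15 lay below 0, with a median of -0.42, a range from -1.03 to 0.38 and 1 at least 2-fold lower, and their summed signal was 158754 in sham and 110223 in 5/6Nx. The enzymes of GABA synthesis Gad1 (-0.41) and Gad2 (-0.54) and the vesicular GABA transporter gene Slc32a1 (-0.50) were nearer to 0 than 9 of the 10 peptide genes. The lowest marker was the parvalbumin gene Pvalb, by its brighter probe (-1.03), while its other probe stood at -0.38 and was not 2-fold lower. It was followed by Sox6 (-0.79) and Erbb4 (-0.78), 2 genes of interneuron development, and the highest was Lhx6 (0.38), whose other probe stood at -0.41. Whether these markers have a part in the peptide differences was not tested.

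**Figure D2:**
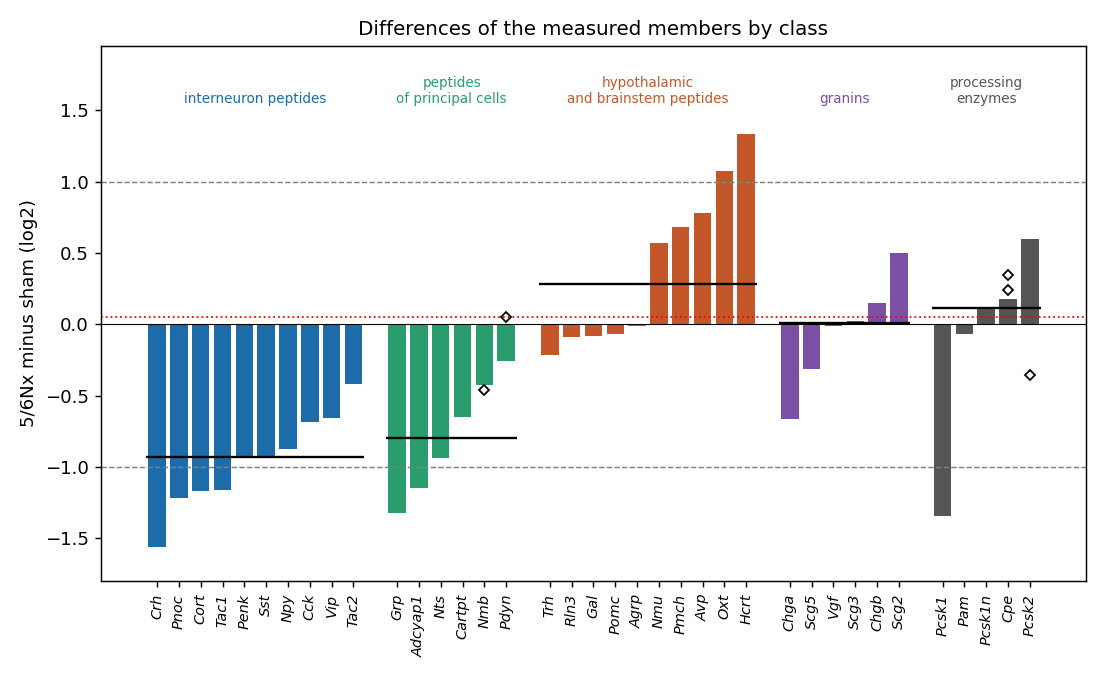
Difference between 5/6Nx and sham (vertical axis, log2) of each measured member, grouped by class, with the class median as a black line, the median of all genes (0.05) as a dotted red line and 2-fold as dashed lines. Open diamonds are further measured probes of the same gene. All bars of the interneuron and principal-cell classes point down, the hypothalamic class reaches from -0.21 to 1.33, and the 2 probes of Pcsk2 lie on opposite sides of 0.

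Peptides made by pyramidal, granule or mossy cells were lower too. Grp, the gene of gastrin-releasing peptide, a bombesin-like peptide, had a signal of 8697 in sham and 3023 in 5/6Nx (-1.32, 2.50-fold lower). Adcyap1, which encodes the peptide PACAP, had 968 in sham and 381 in 5/6Nx (-1.14), and was short of 2-fold with normexp background correction (-0.95) and with no background subtraction (-0.93). Nts, the neurotensin precursor, had 1633 and 741 (-0.94), and Cartpt, the CART peptide gene, 871 and 482 (-0.65). Nmb, the neuromedin B gene, had 6229 in sham and 4030.3 in 5/6Nx (-0.43), with the other probe at -0.46. Pdyn, the dynorphin precursor of dentate granule cells, was nearest to 0: its brighter probe had 4428 and 3225 (-0.26), and a dim probe in the coding part had 39.7 and 35.8 (0.05).

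Markers of the principal cells themselves did not share a direction. The 8 measured dentate granule cell markers were all above 0 (median 0.43, summed signal 13889 in sham and 16414 in 5/6Nx), 7 of 8 markers of CA2 and CA3 were above 0 (0.46, 103108 and 90508), and 5 of 6 CA1 markers were below 0 (-0.38, 101774 and 57169). Among these 5, Mpped1 had its brighter probe at -0.59, with 40747 of the summed signal in sham and 23564 in 5/6Nx, and its other probe at 0.72. Of the 6 CA1 markers 2 were at least 2-fold lower, against 3.28% of all genes. In each of the other 2 lists 1 marker was at least 2-fold higher, against 4.91%. The sums are before scaling and weigh bright genes most. The marker signals show that the labelled tissue expressed its defining genes on both arrays. Among them were Prox1 of granule cells with 503 in sham and 540 in 5/6Nx (0.30) and Wfs1 of CA1 cells with 41258 and 16506 (-1.12). The part of these markers in the values of the peptide genes was not tested.

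The coding probes of these genes also show where a precursor is cut. The capitals mark pairs of basic codons in the reading frame of the peptide. In Nts the first pair lies inside neurotensin and the second directly behind it. In Pdyn the second of the 3 pairs lies directly before the start of an opioid peptide. The positions on mm9 are chr10:101944967-101945026 for Nts, chr13:100668967-100669956 for Cartpt, whose probe crosses an exon junction, and chr2:129513968-129514027 for the dim Pdyn probe, each on the minus strand.
Nts: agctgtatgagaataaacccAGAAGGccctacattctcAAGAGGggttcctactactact
Cartpt: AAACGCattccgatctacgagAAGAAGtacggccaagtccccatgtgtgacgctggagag
Pdyn: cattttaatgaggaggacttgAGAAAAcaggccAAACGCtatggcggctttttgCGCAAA

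The hypothalamic and brainstem peptides had low signals, and 8 of the 10 measured were at or below the median signal of all genes. Hcrt, the orexin precursor of wake-promoting neurons of the lateral hypothalamus, had a signal of 175 in sham and 384 in 5/6Nx (1.33, 2.52-fold higher) at chr11:100623007-100623066 on mm9, and its other probe stayed short of the background call on both arrays. Oxt, the oxytocin gene, had 277 in sham and 507 in 5/6Nx (1.07, 2.10-fold higher). Avp, the vasopressin gene beside Oxt on chromosome 2, had 286 in sham and 427 in 5/6Nx (0.78). Pmch, which encodes melanin-concentrating hormone, had 143 and 199.6 (0.68), and Nmu, the neuromedin U gene, had 35.4 and 45.8 (0.57). The Avp probe, at chr2:130406552-130406817 on mm9 (minus strand), crosses an exon junction and lies in the part that encodes the carrier protein neurophysin, with no pair of basic codons in its frame. Neurophysin is closely similar in the vasopressin and oxytocin precursors, and binding of Oxt mRNA to this probe was not tested.
Avp: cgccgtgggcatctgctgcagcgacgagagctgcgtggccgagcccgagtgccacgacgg

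In the same class, Trh, the gene of thyrotropin-releasing hormone, had 167 in sham and 126 in 5/6Nx (-0.21), Gal, the galanin gene, 1716 and 1409 (-0.08), and Pomc, the precursor of melanocortins and endorphin, 1399 and 1159.5 (-0.07). Agrp, which encodes the agouti-related peptide of hunger neurons, had 104 and 89.7 (-0.01), and Rln3, the relaxin-3 gene of the nucleus incertus, 32.6 and 26.6 (-0.09), and both signs turned with another background correction. Ucn was at 18.6 in sham and 9.87 in 5/6Nx, not well above background, and has no fold. Of the 10 measured genes 4 were at least 1.5-fold higher, against 13.7% of all genes and 19.5% of the genes at or below the median signal, and 2 were at least 2-fold higher, against 7.34% of those dimmer genes. Oxt was at least 2-fold higher under some settings and short of it under others, with values from 0.79 to 1.07 over the alternatives, and Hcrt ranged from 1.05 to 1.34.

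Of 12 transcription factor and signalling genes that mark the hypothalamus, 7 were not well above background on either array, among them Sim1, Otp and Nkx2-1. The 5 measured had a median of -0.15, a range from -0.59 to 0.48, no 2-fold difference and a summed signal of 426 in sham and 321 in 5/6Nx. Markers of the choroid plexus epithelium were higher in 5/6Nx, with 12 of 13 measured at least 2-fold higher (median 2.20, summed signal 27259.9 in sham and 288389 in 5/6Nx). Markers of leptomeningeal fibroblasts (10 of 10 at least 2-fold lower, 68413 and 14248) and of blood cells (6 of 6, 111940.0 and 6904) were lower. Markers of thalamus and habenula (median 0.05 over 6 measured, 3580.2 and 3362) and of striatum (0.12 over 6, 16448 and 17808) had 0 and 1 members at least 2-fold lower. All these sums are before scaling. The part of any of these tissues in the peptide values was not tested.

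Granins, the acidic proteins of the dense-core vesicle, did not follow the peptide precursors. Chga, the chromogranin A gene, was lowest, with a signal of 37537 in sham and 20664 in 5/6Nx (-0.66, 1.58-fold lower). Scg2, the gene of secretogranin II, was highest, with 32767 in sham and 40379 in 5/6Nx (0.50). Scg5, which encodes the chaperone 7B2 of the convertase PC2, had 148244 and 103697 (-0.31). Chgb, the chromogranin B gene, was spotted 10 times: its scaled log2 value was 6.97 ± 0.03 (SD, n = 10 spots) in sham and 7.12 ± 0.02 (SD, n = 10 spots) in 5/6Nx, a difference of 0.15 that was below 0 when the arrays were set to their median or to the spike-in probes. Vgf, an activity-regulated granin, had 65924 and 56847 (-0.01), and Scg3, the secretogranin III gene, 34906 and 30893 (0.02), values whose sign turned under some of the scalings.

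Of the 5 processing genes, Pcsk1, which encodes the prohormone convertase PC1/3, was at least 2-fold lower, with a signal of 957 in sham and 329 in 5/6Nx (-1.34, 2.53-fold lower) at chr13:75269727-75269786 on mm9. The convertase that shares many of its substrates, PC2, is encoded by Pcsk2, whose probes disagreed. The brighter probe had 34069 in sham and 44915 in 5/6Nx (0.60), the probe further towards the 3′ end had 12653 and 8594 (-0.36), and their mean was 0.12. Pcsk1n, the gene of the PC1/3 inhibitor proSAAS, had 123042 in sham and 115664 in 5/6Nx (0.11), a sign that turned with the median and spike-in scalings. Cpe, the carboxypeptidase E gene, had its 3 probes at 0.18, 0.24 and 0.35, but its value was -0.14 after quantile normalization and in the authors' normalized table, and -0.11 with spike-in scaling. Pam, the amidating enzyme gene, had 849.7 in sham and 704 in 5/6Nx (-0.07).

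The stretches before the start sites of several of these genes hold the cAMP response element, read here as the 8 bases TGACGTCA, which are the same on both strands and are bound by the CREB family of activity-dependent factors. In the 300 bases from 250 before to 50 after the start (RefSeq, GRCm38.p6), 31 of the 38 members had an entry and 6 of these 31 held the element (19.4%): Sst, Cartpt, Scg2, Chgb, Pcsk1 and Ucn. The share was 2.03% of all 27025 genes with an entry and 3.21% of the 12196 among them measured here. Of the 10 interneuron peptides only 7 had an entry, and 1 of these held the element. The shorter core TGACG, in either orientation and including those within the element, was in 19 of the 31 members (61.3%), in 23.0% of all genes and in 31.3% of the measured ones. The 5 measured members with the full element did not share a direction, with Pcsk1 at -1.34, Sst at -0.92, Cartpt at -0.65, Chgb at 0.15 (below 0 under the scalings named above) and Scg2 at 0.50. Over the 12196 measured genes with an entry, the median difference was -0.04 for the 391 with the element and 0.0077 for those without it. A match of letters is a description and not a bound site.

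The 60 bases around the element are shown for these 5 genes because they carry the same 8 bases, in capitals, close to the start and yet differ in direction. The element began 48 bases before the start site in Sst, 78 in Pcsk1, 112 in Cartpt, 68 in Scg2 and 72 in Chgb. The stretches on GRCm38.p6 are chr16:23890859-23890918 (minus strand), chr13:75089753-75089812 (plus), chr13:99900762-99900821 (minus), chr1:79440061-79440120 (minus) and chr2:132781544-132781603 (plus), in this order.
Sst: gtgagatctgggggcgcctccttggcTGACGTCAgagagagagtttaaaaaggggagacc
Pcsk1: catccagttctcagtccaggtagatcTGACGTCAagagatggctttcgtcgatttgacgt
Cartpt: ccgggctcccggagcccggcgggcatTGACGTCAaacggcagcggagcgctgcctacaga
Scg2: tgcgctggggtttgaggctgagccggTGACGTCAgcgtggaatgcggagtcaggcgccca
Chgb: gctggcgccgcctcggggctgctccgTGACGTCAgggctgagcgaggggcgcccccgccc

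Receptors of these peptides were mixed. Of 38 receptor genes 32 were measured, 19 of them below 0 (median -0.12), 4 lower by 2-fold or more and 2 higher. Among all measured genes these shares were 3.28% lower and 4.91% higher. The lowest was Tacr3, the receptor of the Tac2 product neurokinin B, with a signal of 268 in sham and 56.1 in 5/6Nx (-2.05). Crhr1, the main receptor of corticotropin-releasing hormone in the forebrain, had 2811 in sham and 837 in 5/6Nx (-1.55), with its other probe at -1.97. Rxfp3, the relaxin-3 receptor gene, had 92.1 and 216 (1.43), but its other probe stood at -0.27.

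Receptors of the members at least 2-fold apart were paired with their ligands after those values were seen, and some had the sign of the ligand and some the opposite one. Crh and Crhr1 were both lower, whereas the second receptor gene Crhr2 had a value of 0.43. The somatostatin receptors, which also bind cortistatin, were at -0.82 (Sstr1, other probe -0.44), -0.87 (Sstr2), 0.06 (Sstr3) and 0.28 (Sstr4). Oprl1, the nociceptin receptor gene, had a value of -0.45, with its other probe at -0.73. Values were -0.24 for Tacr1, the substance P receptor gene, -0.27 for Grpr, the receptor gene of gastrin-releasing peptide, and -0.28 for Adcyap1r1, a PACAP receptor gene. The orexin receptor gene Hcrtr1 had a value of -0.69 where Hcrt was higher, and the oxytocin receptor gene Oxtr stood at -0.14 where Oxt was higher. The other orexin receptor gene, Hcrtr2, was well above background in sham only and is not among those measured.

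**Figure D3:**
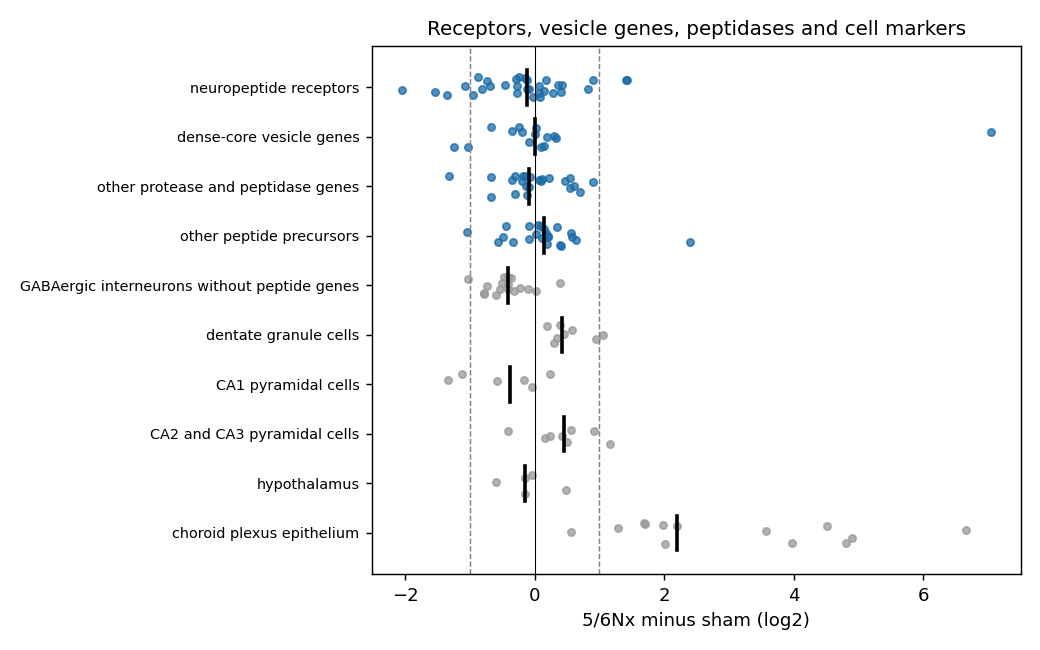
Difference between 5/6Nx and sham (horizontal axis, log2) of measured genes in 4 lists of peptide signalling (blue) and 6 marker lists (grey), with medians as black bars and 2-fold as dashed lines. Receptors centre near 0 with Tacr3 at -2.05, the interneuron markers lie mostly below 0, and the choroid plexus markers lie above 0.

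The machinery of dense-core vesicles and the other proteases centred near 0 as well. Of 15 vesicle genes, all measured, 8 lay above 0 (median 0.0037), 2 were lower by 2-fold or more and 1 was higher. For this list and the 2 lists below, the shares among all measured genes were 3.28% lower and 4.91% higher. Syt10, a calcium sensor of regulated secretion, had a signal of 241 in sham and 27773 in 5/6Nx (7.05). Syt7, another synaptotagmin, had 2032 and 742 (-1.25) with the other probe at 0.15, and Rab27b, a small GTPase of vesicle docking, had 3577 and 1526 (-1.03) with the other probe at -0.67. Of 23 other protease and peptidase genes 13 lay below 0 (median -0.09) and 1 was at least 2-fold lower, Anpep, the aminopeptidase N gene, at -1.33. Cpm, a membrane carboxypeptidase gene, had a value of 0.91 and Enpep, the aminopeptidase A gene, one of 0.71. Of 33 further peptide precursors 23 were measured and 7 of these lay below 0 (median 0.15), with 1 at least 2-fold higher and 1 lower. The adrenomedullin gene Adm was the highest of them at 2.40, the CGRP gene Calca the lowest at -1.05, and Nppc, the gene of C-type natriuretic peptide, had a value of 0.63.

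**Figure D4:**
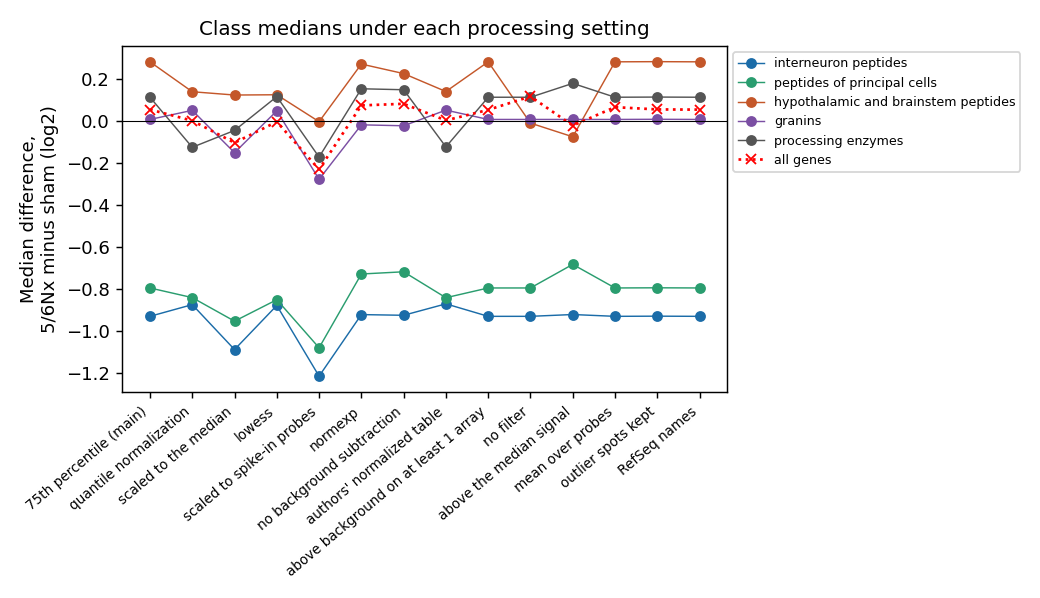
Median difference of each class (vertical axis, log2) under the setting used in the text (75th percentile, left) and 13 alternatives, with all genes as red crosses. The interneuron median stays between -1.22 and -0.87 and that of the principal-cell peptides below 0, while the medians of the other 3 classes lie on either side of 0.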

How the data were processed

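Per the labels' protocols, the RNA was labelled with Cy3 and each sample was run on its own 1-colour Agilent array. The deposited scanner files hold a linear intensity per spot, extracted by the authors with Feature Extraction 10.7.1.1, per the file headers (9.5.1.1, per the submitters' processing notes). Spatial detrending, which takes off a fitted background surface, and multiplicative detrending were switched on within each array, per the file headers. The authors' deposited table of normalized intensity, with a median of 124 in both columns, was an alternative. Its columns correlated at 1.000 with their own array and 0.983 with the other, as log2 over 55674 probes. Scale and direction are thus settled, and the normalization method is not. It gave 1013 genes at least 2-fold higher and 1034 lower, close to the 1008 and 1036 after quantile normalization. These 2 alternatives are therefore not separate evidence.

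Control spots and outlier spots (105 in sham, 97 in 5/6Nx) were left out, log2 intensity was taken relative to each array's 75th percentile, and spots of a probe were averaged. A gene, by the scanner file's name, was represented by its probe of highest mean signal among those that passed the scanner's well-above-background call on either array, and was measured if that probe passed on both. The accession or name of all 44 member probes led to the same symbol in RefSeq (GRCm38.p6). Probe coordinates are on mm9. Reading frames of probes were taken from the known peptide. Every member is named; of other pathway lists the 3 measured genes of largest absolute difference are named, of marker lists at most 3 beside Gad1, Gad2 and Slc32a1, and exceptions are stated: the receptors paired with ligands, Lhx6, Mpped1, Sim1, Otp, Nkx2-1, Prox1 and Wfs1 were chosen after values were seen. The members and lists were chosen with earlier results of these data known. The calculation was run on simulated spots, made from the sham array with known folds and small noise. This checks the arithmetic and not the differences between the 2 real arrays. Python 3.11.15, pandas 2.3.3, statsmodels 0.14.6 and limma 3.58.1 were used. The number of arrays limits the precision, and no p-value was computed.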

Additional observations from a re-analysis of the deposited data

How the results depend on the processing

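No array could be left out, and dim probes are limited by their signal over background. No paired analysis was possible because there is 1 array per group. The 9 members at least 2-fold apart kept their sign in all 112 values under the 13 alternatives, and 9 of the 112 were under 2-fold. The alternatives process the same 2 arrays again, and not all of them could change a value. Changes of filter and of gene names returned the main value for every measured member they kept. Averaging over probes did so for these 9, and keeping outlier spots moved a value very little. Of all 468 member values 18 had the opposite sign, in Agrp, Rln3, Vgf, Scg3, Chgb, Pcsk1n and Cpe. For the values below, where no filter, threshold or constant shift sets the move, the cause was not tested. The all-gene median of 0.05 became -0.11 when arrays were scaled to the median and -0.23 with spike-in scaling, which shifts every gene alike. Of the 2-fold differences over all genes 59.9% were higher, against 49.3% after quantile normalization, 42.4% with the median, 48.0% with lowess, 29.9% with spike-ins and 49.5% in the authors' table. Members at least 2-fold higher numbered 1 with quantile, median, lowess or spike-in scaling, normexp (offset 50), no background subtraction and the authors' table, 0 above the median signal, 5 at 1.5-fold and 0 at 3-fold. Members lower numbered 11 with median and with spike-in scaling, 6 with normexp and with no background subtraction, where Adcyap1 was short of 2-fold, 4 above the median signal, 15 at 1.5-fold and 0 at 3-fold. All genes higher and lower were 710.0 and 1666 with spike-ins, 687 and 497 after normexp, 638 and 468 without background subtraction, 2604 and 1670.0 without a filter, and 322 and 306 for genes above the median signal, and 1284 were lower (1774 higher) with genes above background on at least 1 array. With spike-in scaling the class medians were -1.22 for interneuron peptides, -1.08 for principal-cell peptides, -0.0048 for hypothalamic and brainstem peptides, -0.28 for granins and -0.17 for processing enzymes. The hypothalamic median was -0.0116 with no filter, which adds Ucn, and -0.0767 above the median signal, and that of processing enzymes -0.13 after quantile normalization and -0.12 in the authors' table.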
